A study of Rattus norvegicus with 13 samples.

Results

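A set of 10 genes at the entry to DNA synthesis were followed in the left ventricle of rats: the atypical E2F factors E2f7 and E2f8, the activator E2f1, the replicative helicase subunits Mcm2, Mcm3, Mcm5, Mcm6 and Mcm7, the polymerase clamp Pcna and the thymidylate synthase Tyms. They were chosen by name, with the values of the comparison described here already known, so those values are given as a description with no test. The array names 26115 genes through 30367 probes, and these 10 genes have 14 probes. All tissue came from male rats aged 45 weeks. One group was labelled wild type (WT) and the other as overexpressing ADBR3, the spelling the labels use for the β3-adrenergic receptor (Adrb3), a catecholamine receptor. No further allele, strain or agent is named for either group, and the sources used here do not say how, in which cells or from which sequence the receptor was overexpressed. The 13 arrays held 6 WT and 7 ADBR3 hybridizations of 4 WT and 5 ADBR3 rats. Hearts 1 and 2 of each group were repeat labelings of 1 rat and were averaged, while WT heart 5 and ADBR3 heart 4 were repeat hybridizations whose partner is not named, and they entered no group mean over rats; they were used only within slide 4 and scan day 2, where this is stated. The heart number names the rat, which gives WT rats 1, 3, 4 and 6 and ADBR3 rats 1, 3, 5, 6 and 7.

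E2F factors bind the promoters of genes needed for S phase. E2f1 activates them and is held back by the retinoblastoma protein until a cell commits to divide. E2f7 and E2f8 are called atypical because they carry a tandem pair of DNA-binding domains, need no DP partner and act mainly as repressors that shut the same promoters later in S phase. Mcm2 to Mcm7 form the ring that is loaded on origins and unwinds DNA, Pcna holds the polymerases on the template, and Tyms makes the thymidylate they consume. Most cardiomyocytes of an adult ventricle have left the cell cycle, so transcripts of this kind in whole tissue can also come from other dividing cells. In bulk RNA, fewer cells of a type and less RNA per cell cannot be told apart.

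Levels are log2 of the processed spot signal after that array's 75th percentile was subtracted, so a value of 0 is a probe as bright as that percentile, and a difference is always ADBR3 minus WT on this log2 scale. Levels of different probes are not compared, because brightness depends on the probe. The 75th percentile lay between 760.4 and 908.7 signal units, 55.2% to 67.8% of spots were well above background by the scanner software's own call, and no spot was saturated. The lowest shares were those of WT heart 2 (55.2%) and WT heart 6 (58.7%). Other WT arrays had 63.6% to 67.8% and the ADBR3 arrays 61.5% to 65.5%. Counts of WT arrays above background, given below for dim probes, include these WT arrays, and their part in the count of any gene was not tested. The number of arrays limits the precision. The probe for rat Adrb3 exceeded background clearly on 1 of 7 ADBR3 arrays and 0 of 6 WT arrays. WT rats averaged -6.44 ± 0.445 (SD, n = 4) and ADBR3 rats -5.96 ± 1.22 (SD, n = 5), which lie within each other's spread (two-sided exact permutation test over rats, p = 0.532, smallest possible 0.00794). A probe for the rat gene reports an introduced sequence only if it matches it, so this probe neither bears out nor contradicts the group labels. Of the 10 cardiomyocyte markers, all were measured, and their summed signal ranged from 2610 to 3286 times the 75th percentile in WT and from 2896 to 3224 times in ADBR3 rats.

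Of the 10 genes, 4 were lower and 6 higher in ADBR3 rats by group mean, with a median difference of 0.069, against a median of -0.0089 over the 15367 genes tested, of which 53.3% were lower. None was past a Benjamini-Hochberg adjusted p of 0.05 in the limma fit over all genes, where 0.00651% of genes passed. One, E2f8, was lower at an unadjusted p under 0.05, where 9.44% of all genes passed in either direction, 6.29% lower and 3.15% higher. E2f8 was also the single member whose groups did not overlap, against 2.30% of all genes apart on the lower side and 1.22% on the higher side. Nothing is read from these counts, since the values were known when the genes were chosen. A probe entered the fit when 4 or more of the 9 rats had it well above background. All 10 genes passed, 7 of them on every array, and the other 3 (E2f7, Mcm6 and Tyms) on some arrays only.

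**Figure D1:**
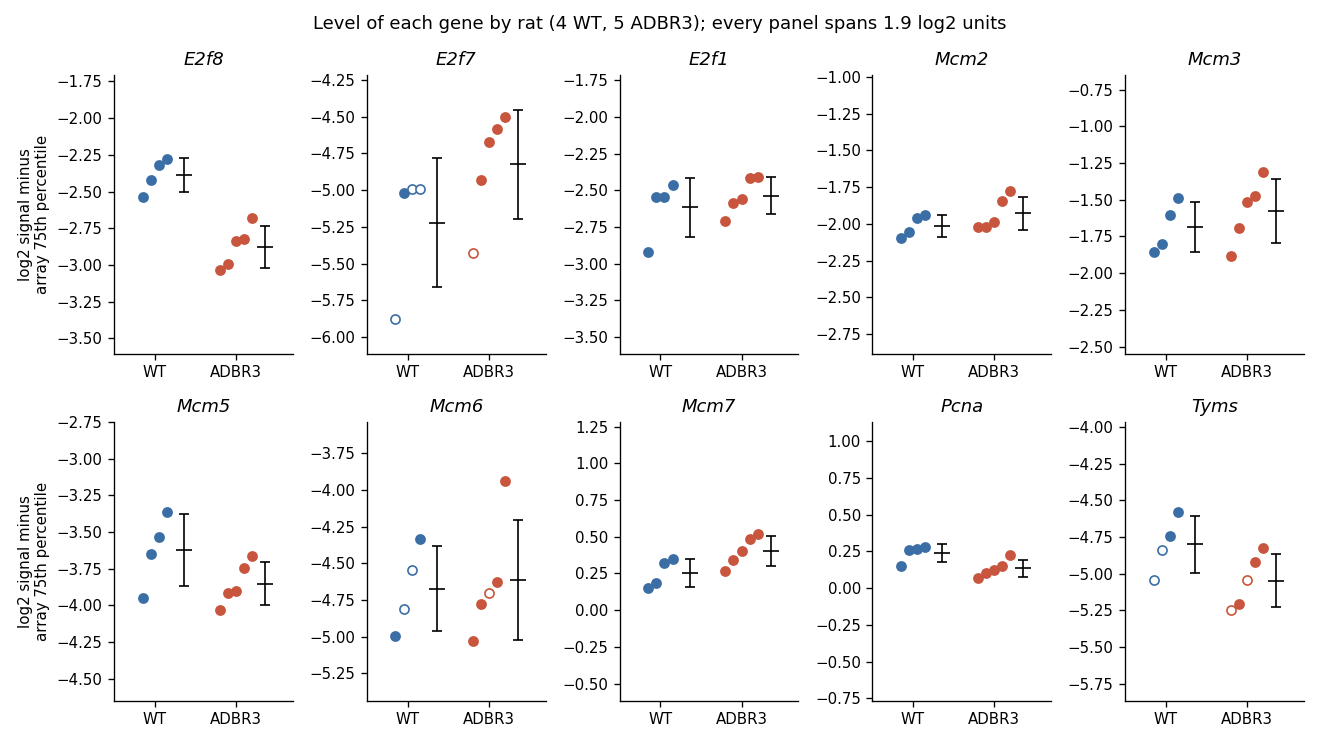
Level of each gene by rat, on the vertical axis as log2 signal minus the array 75th percentile, for 4 WT (blue) and 5 ADBR3 (red) rats; filled points are well above background, open points are not, and bars give mean ± SD. The groups separate for E2f8, from -2.54 up in WT and from -2.68 down in ADBR3, and overlap in the other panels.

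E2f8 has 2 probes, both named in the scanner files for the same Ensembl transcript, on the minus strand of rat chromosome 1 in build rn4. They differ in what they measured. The first, A_64_P100669, holds an alternating CA run of 11 bases. The other is shown because it holds no such run.
E2f8 A_64_P112034, chr1:98641028-98641087: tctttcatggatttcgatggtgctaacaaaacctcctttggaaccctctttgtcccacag
The gene model of that build was not used here, so exon or untranslated region is not stated.

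Only the first E2f8 probe was measured above background, on 6 of 6 WT and 7 of 7 ADBR3 arrays. Its level was -2.28, -2.32, -2.54 and -2.42 in WT rats 1, 3, 4 and 6. In ADBR3 rats 1, 3, 5, 6 and 7 it was -2.68, -2.99, -2.84, -3.04 and -2.82. Every ADBR3 rat was below every WT rat, with ADBR3 rats 6 and 3 lowest and a gap of 0.144 between the groups. The means were -2.39 ± 0.115 (SD, n = 4) and -2.87 ± 0.143 (SD, n = 5), a difference of -0.49 ± 0.0883 (SE), or 1.40-fold lower. The repeat hybridizations, which entered neither of these means, fell on the same sides, at -2.41 in WT and -2.66 in ADBR3. They add no further rat and so no separate support, and the ADBR3 one lay above the level of every ADBR3 rat. Repeat labelings of WT rat 1 read -2.43 and -2.12, a spread of 0.312, and those of ADBR3 rat 1 read -2.72 and -2.63. The probe was spotted in duplicate, and its spots on an array differed by a median of 0.170 log2, at most 0.343. Its signal was dim, between 104.93 and 175.04 units with a median of 144.62.

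The other E2f8 probe was well above background on none of the 13 arrays. Its signal was 5.23 to 12.6 units, so it holds only a bound in both groups and no fold is given. The lower E2f8 reading thus rests on a single probe.

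**Figure D2:**
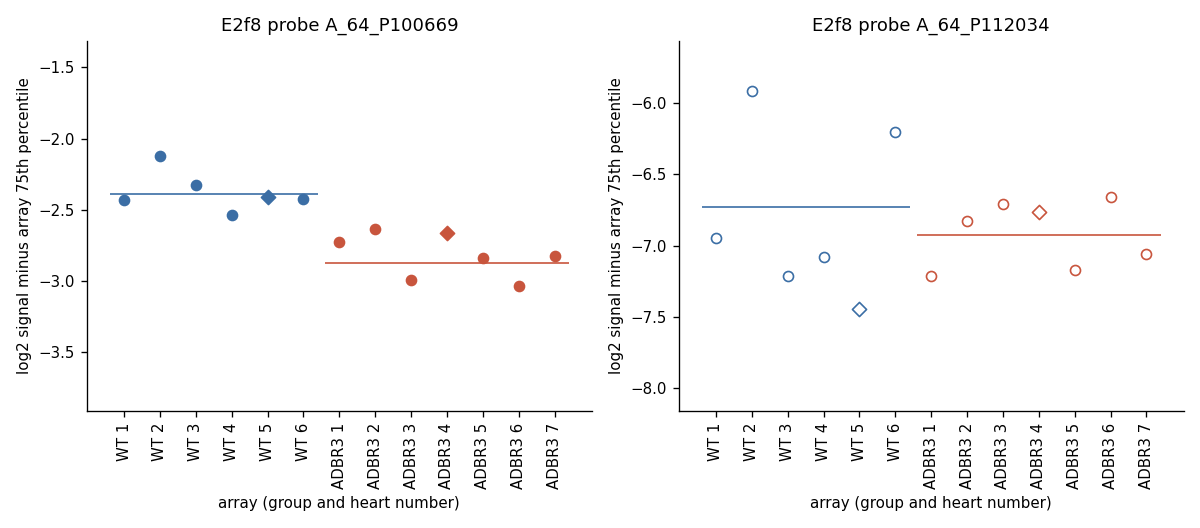
Both E2f8 probes on each of the 13 arrays, on the vertical axis as log2 signal minus the array 75th percentile; filled symbols are well above background, open symbols are not, diamonds are the repeat hybridizations and lines are group means over rats. The probe at left lies lower on all 7 ADBR3 arrays than on all 6 WT arrays, and the probe at right is open on every array.

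Most other probes with a repeat of this kind also read lower by mean in ADBR3 rats. This set was drawn up after the sequence of the E2f8 probe had been seen, and it is given as a description. On the array, 38 probes hold an alternating CA or TG run of 11 bases or more, and 37 of them passed that filter. Of the 36 apart from E2f8, 33 were lower and 3 higher, with a median difference of -0.17 and quartiles of -0.22 and -0.064. Over all 17587 probes that passed the same filter, 9411 were lower and 8176 higher, with a median of -0.0094. The groups did not overlap on the lower side for 9 of the 36 (25%), against 389 of all probes (2.21%). The mean level of the 36 probes was 1.91 to 1.97 in the 4 WT rats and 1.76 to 1.82 in the 5 ADBR3 rats, so the groups did not overlap in this mean either. The 19 probes with the run written as CA had a median of -0.19, and the 17 with TG had a median of -0.097. The share lower grew with the run: 61.0% of 136 probes with at least 8 bases, 84.4% of 45 with at least 10 and all of 27 with at least 14. The 5 other probes whose run is 11 bases, as long as that of E2f8, spread from -0.27 to 0.28 with a median of -0.0090, and 3 of them were lower. None of the 36 was as low as E2f8. The part of the repeat in the E2f8 result was not tested.

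**Figure D3:**
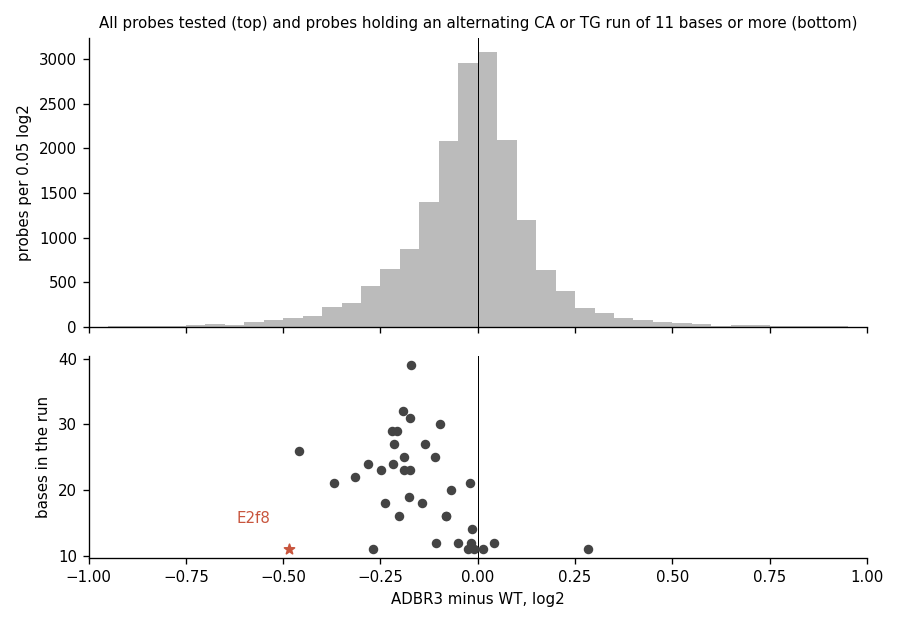
Top, the number of probes per 0.05 log2 of difference among the 17587 that passed the filter; bottom, the difference (horizontal axis, ADBR3 minus WT, log2) against the length of the alternating run in bases for the 37 repeat probes, E2f8 as a red star. The horizontal axis stops 1 log2 unit from 0 on either side. The points at 14 bases or more all lie left of 0, and E2f8 lies farthest left at -0.49.

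Several marker lists of the cell types a ventricle holds also leaned to 1 side by group mean. The cardiomyocyte list was mixed, with 6 markers lower and 4 higher. In limma, 2 of the 10 were higher at an unadjusted p under 0.05 and none lower, against 3.15% of all genes higher. None passed after adjustment. The groups did not overlap on the higher side for 1 of the 10, against 1.22% of all genes. All 10 lymphocyte markers that were tested, of 17 on the array, were lower by group mean, 5 of them at an unadjusted p under 0.05 and none after adjustment in limma; over all genes 53.3% were lower by mean and 6.29% lower at that p. Their summed signal was 1.98 to 2.63 times the 75th percentile in WT and 1.51 to 1.98 times in ADBR3 rats, and Cd5 and Cd79b were well above background on no array. The summed signal of mast cell and granulocyte markers was 1.97 to 2.88 times in WT and 1.79 to 2.47 times in ADBR3 rats, with 6 of 8 lower. Of these 8, 2 were lower at an unadjusted p under 0.05 in limma and none after adjustment. The groups did not overlap on the lower side for 1 of the 8, against 2.30% of all genes. For macrophages and myeloid cells, 9 of 11 markers were lower, 1 of them at that unadjusted p. Of the endothelial markers 9 of 11 were lower, none of them at that p. On the other side, all 10 fibroblast markers were higher, with sums of 56.9 to 68.7 times in WT and 62.6 to 74.7 times in ADBR3 rats, and none of them reached an unadjusted p under 0.05. Of smooth muscle and pericyte markers 7 of 8 were higher, and of erythroid markers 5 of 6. The mean level of the erythroid markers was nevertheless lower, at 2.68 in ADBR3 against 2.76 in WT rats. The part of these cells in the values of any gene given here was not tested.

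E2f7, the other atypical factor, was near the detection limit. Its probe, shown as the only one for the gene, lies on the plus strand of chromosome 7 in rn4.
E2f7 A_64_P037333, chr7:49748927-49748986: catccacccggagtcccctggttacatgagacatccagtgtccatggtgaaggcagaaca
It exceeded background clearly on 6 of 7 ADBR3 arrays but 2 of 6 WT arrays, and passed the filter mostly through the ADBR3 rats. Its level was -4.99, -5.88, -5.02 and -4.99 in WT rats 1, 3, 4 and 6 and -4.93, -5.43, -4.50, -4.59 and -4.68 in ADBR3 rats 1, 3, 5, 6 and 7. Of the 5 ADBR3 rats, 4 were above all WT rats, and the groups overlapped through ADBR3 rat 3. The difference of 0.40 ± 0.269 (SE) was smaller than the range within either group, and without WT rat 3 it was 0.18. The duplicate spots of this probe differed by up to 1.12 log2 on an array.

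E2f1, the activator, differed by less than its standard error on the probe that measured it. That probe was above background on all 13 arrays and read -2.54, -2.92, -2.46 and -2.55 in WT rats 1, 3, 4 and 6 and -2.59, -2.42, -2.71, -2.41 and -2.56 in ADBR3 rats 1, 3, 5, 6 and 7. WT rat 3 was the lowest of the 9 and the other 8 rats interleaved. The difference was 0.080 ± 0.110 (SE) and turned to -0.019 without WT rat 3. A further E2f1 probe, 949 bases upstream and ending in a stop codon, was above background on no array.

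The helicase subunits showed no common direction. Mcm7 read 0.32, 0.35, 0.15 and 0.19 in WT rats 1, 3, 4 and 6 and 0.52, 0.35, 0.27, 0.40 and 0.48 in ADBR3 rats 1, 3, 5, 6 and 7. ADBR3 rats 1, 6 and 7 were above every WT rat, while ADBR3 rats 3 and 5 lay within the WT range. Its difference was 0.15 ± 0.0665 (SE), or 1.11-fold higher, and was between 0.12 and 0.19 when any rat was left out. It was 0.29 with the slide as a block and 0.33 within slide 1. Mcm2 differed by 0.085 ± 0.0667 (SE) on the probe measured on all arrays, with WT rats from -2.10 to -1.94 and ADBR3 rats from -2.02 to -1.77. Its other probe, above background on 3 of 6 WT and 5 of 7 ADBR3 arrays and in 1 of 4 WT rats against 4 of 5 ADBR3 rats, read 0.38 ± 0.245 (SE) higher with groups that overlapped. It passed the filter mostly through the ADBR3 rats and gives no support to the brighter probe. Mcm3, with 0.11 ± 0.134 (SE) on its brighter probe and 0.0095 ± 0.206 (SE) on the dimmer one, overlapped on both, although on the brighter probe 2 of 5 ADBR3 rats lay above all WT rats and 1 below them.

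Mcm5 was the subunit that was lower, at -3.53, -3.95, -3.36 and -3.65 in WT rats 1, 3, 4 and 6 and -3.75, -3.90, -4.03, -3.66 and -3.91 in ADBR3 rats 1, 3, 5, 6 and 7. WT rat 3 sat among the ADBR3 rats, and only ADBR3 rat 5 lay below all WT rats. The difference of -0.23 ± 0.131 (SE) was within the range of the WT group. The duplicate Mcm5 spots on an array differed by a median of 0.113 log2, at most 0.535. Mcm6 was dim, above background on 4 of 6 WT and 6 of 7 ADBR3 arrays, and its difference of 0.057 ± 0.243 (SE) came with ADBR3 rat 6 at -3.94, well above the other 8 rats. Without that rat it was -0.11. Its duplicate spots differed by up to 1.47 log2 on an array.

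Pcna, the sliding clamp, varied least of all 10 genes. It read 0.15, 0.28, 0.26 and 0.26 in WT rats 1, 3, 4 and 6 and 0.23, 0.071, 0.12, 0.15 and 0.10 in ADBR3 rats 1, 3, 5, 6 and 7. Of the 5 ADBR3 rats, 4 lay below all WT rats, and ADBR3 rat 1 and WT rat 1 crossed over. The means of 0.239 ± 0.0588 (SD, n = 4) and 0.134 ± 0.0592 (SD, n = 5) differed by -0.10 ± 0.0396 (SE), or 1.08-fold. The repeat labelings of ADBR3 rat 1 read 0.158 and 0.297, a spread larger than this difference. Tyms was dim, above background on 4 of 6 WT and 5 of 7 ADBR3 arrays. It read -5.04, -4.75, -4.58 and -4.84 in the same WT rats and -5.04, -5.25, -5.21, -4.92 and -4.83 in the same ADBR3 rats. Its groups overlapped, with a difference of -0.25 ± 0.125 (SE). The duplicate Tyms spots on an array differed by a median of 0.496 log2, at most 1.33, which is more than that difference.

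**Figure D4:**
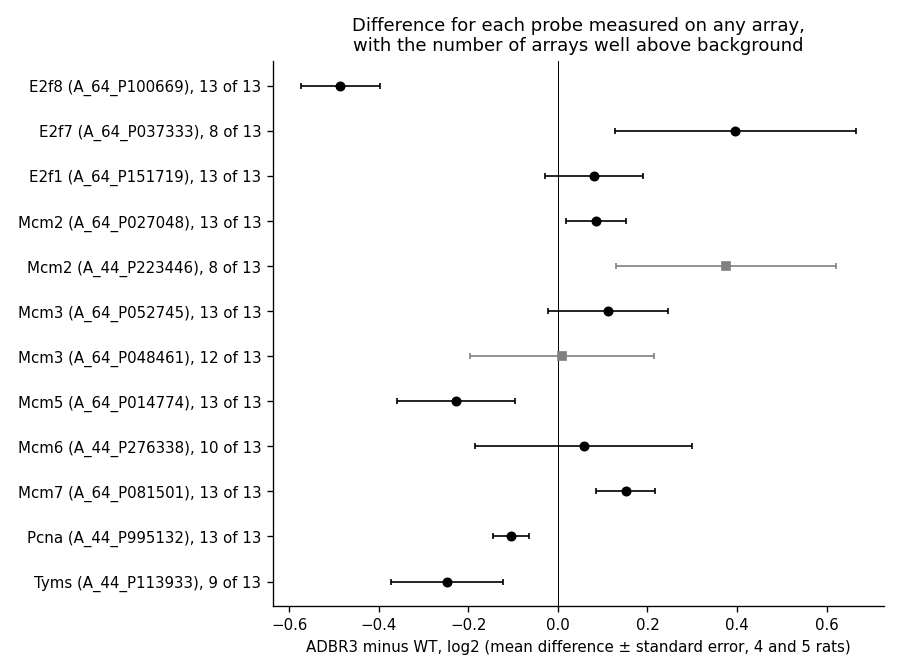
Difference (horizontal axis, ADBR3 minus WT, log2, mean ± SE over 4 and 5 rats) for each probe above background on at least 1 of 13 arrays, with that number of arrays beside the name; black circles are the probes fitted and grey squares other probes of the same gene. E2f8 lies at -0.49 and E2f7 at 0.40, and the remaining genes lie between -0.25 and 0.15 on the fitted probe.

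Slides and scan days held both groups unevenly. Within slides 1 and 3, the E2f8 difference was -0.29 and -0.37, with 1 or 2 rats a group. Within slide 4 it was -0.44, but there the repeat hybridization WT heart 5 is the only WT array and ADBR3 heart 4 is 1 of 3 ADBR3 arrays. It was -0.28 within scan day 1, with 1 WT rat, and within scan day 2 it was -0.53 over 3 rats a group and -0.46 with the repeat hybridizations added. With the slide as a block it was -0.31, against -0.49 as fitted. Among the arrays in that fit, only slides 1 and 3 held both groups. The blocked value thus rests on WT rats 1, 4 and 6 and ADBR3 rats 1 and 7. ADBR3 rat 1 was counted on slide 3, although its repeat labeling lay on slide 2. On the fitted probes, Mcm2 and Mcm7 were higher and Mcm5, Pcna and Tyms lower within each of slides 1, 3 and 4 and within each scan day. The slide 4 values of these genes, too, rest on WT heart 5 as the only WT array, and Tyms was at -1.09 there. Over the 10 genes, the median difference was 0.069 as fitted, but -0.061 with the slide as a block, -0.13 within slide 1 and -0.12 within scan day 1. It was -0.035 without WT rat 3 and -0.031 without ADBR3 rat 6, so the majority on the higher side depended on which rats and arrays were set against each other. ADBR3 rat 6 was the highest rat in 4 of the 10 genes (E2f1, Mcm2, Mcm3 and Mcm6) and ADBR3 rat 3 the lowest in 3 (Mcm3, Pcna and Tyms).

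With each group mean removed, the helicase genes were described by their correlations from rat to rat. Across 9 rats, the 10 pairs of Mcm genes had a median Pearson r of 0.389, with 8 of 10 above 0. The 45 pairs of all 10 genes had a median of 0.199, and the pairs of all tested genes one of 0.0056 with quartiles of -0.287 and 0.299. The highest values were 0.855 for Mcm5 with Mcm6 and 0.838 for E2f1 with Mcm5. The lowest were those of E2f8 with E2f1 (-0.587) and with Mcm6 (-0.526), whereas E2f8 with Mcm7 gave 0.645. All these correlations share the same 9 rats and arrays and are a description. The 5 genes whose level followed the mean of the Mcm genes most closely, among 9840 measured in every rat, were Ywhaz, a 14-3-3 adaptor protein (r = 0.991), Rxfp1, the relaxin receptor (0.961), Gnai2, an inhibitory G protein subunit (0.956), Ddx19a, an RNA helicase (0.951), and Plk3, a polo-like kinase (0.946). Picking the highest of 9840 over 9 rats gives high values by the choice itself. The Mcm genes were averaged without scaling. Dim Mcm6, which is also in the highest pair, varied most of them, with a pooled SD of 0.362 against 0.099 for Mcm2 and Mcm7.

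For E2f8 with group means removed, the closest were Poldip2 (r = 0.930), Dcaf4 (0.925), Cacfd1 (0.923), Pou3f1 (0.915) and Retreg1 (0.915), named Fam134b on the array. With the group means kept they were Greb1, named RGD1564091 on the array (0.956), the scavenging chemokine receptor Ackr4 (0.946), the growth factor receptor Fgfr2 (0.941), the ETS-type repressor Erf (0.934) and Tmem42 (0.931), whose own differences ran from -0.37 for Ackr4 to -0.18 for Tmem42. Genes picked in this way share the group difference of E2f8, so their direction follows from the choice and is no result. The Ackr4 probe is itself 1 of the repeat probes, with an alternating run of 21 bases.

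Promoter sequence does not enter the array values. RefSeq promoters of build GRCr8, from 250 bases before to 50 bases after each start, were at hand for 8 of the 10 genes, and none was printed or searched for E2f1 and E2f8. An E2F site was taken as TTTGGCGC, TTTCCCGC, TTTGCCGC or TTTCGCGC on either strand. At least 1 such site was found in 6 of the 8 promoters (Mcm2, Mcm3, Mcm5, Mcm6, Mcm7 and Tyms), against 716 of 33469 promoters in the table (2.14%), and in neither of Pcna and E2f7. One 30-base window is shown for each of the 6, in the direction of transcription, because they show the letters the genes share; capitals mark the E2F site, and where they run to 12 letters they mark a pair of overlapping matches on opposite strands.
Mcm2 chr4:122918088-122918117, minus strand: tgacccggtTTTCGCGCGAAAacccgtggc
Mcm5 chr19:13488591-13488620, plus strand: gctcagaagTTTCGCGCCAAAacgtcccgc
Mcm6 chr13:42404471-42404500, minus strand: gcgtctgctTTTGGCGCGAAAttagcgtgt
Mcm7 chr12:22163212-22163241, minus strand: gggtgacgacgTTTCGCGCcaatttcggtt
Mcm3 chr9:30733734-30733763, minus strand: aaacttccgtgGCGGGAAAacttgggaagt
Tyms chr9:120776102-120776131, minus strand: aaggtgcgggtTTTGGCGCcgactacactg
Mcm2, Mcm5 and Mcm6 carry the overlapping pair, while the windows of Mcm7, Mcm3 and Tyms hold a single match. In Mcm3 the match reads on the opposite strand. The capitals of Mcm2 begin 14 bases before the start, those of Mcm6 139 bases and those of Mcm5 213 bases before it. Mcm5 also holds a single match, not shown, that begins 8 bases before the start. Further matches not shown lie 233 bases before the start in Mcm7 and after the start in Mcm3. The genes with a site included some that were lower (Mcm5, Tyms) and some that were higher (Mcm2, Mcm3, Mcm6, Mcm7) by group mean. The CHR element TTTGAA, on either strand, was found in 1 of 8 promoters (Mcm2) against 18.3% of all, and the letters CCAAT in 6 of 8 against 37.5%. These are matches of letters, and no binding was measured.

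The other genes of the pathway are not among the 10, but their lists too were drawn up with earlier results of these data known. They were read from lists by role in the same limma fit. The SE given for a list gene is the moderated one of that fit. For the 10 genes it is the ordinary one from the pooled variance of the groups, so these SE values are not of 1 kind. Over 163 listed genes on the array, 112 were tested, of which 46 were lower and 66 higher by mean, with a median difference of 0.017. None passed the adjusted threshold. At an unadjusted p under 0.05, 8 were higher and none lower, 7.14% of those tested. Over all genes the shares were 3.15% higher and 6.29% lower. This split moved with the setting: 1 higher and 2 lower with the slide as a block, 5 higher and 6 lower with no filter on dim probes, and 13 higher and none lower with median scaling. Without ADBR3 rat 6, 2 were higher, and without WT rat 1 or ADBR3 rat 7, 4 were, each with none lower, while without ADBR3 rat 1 the counts were 8 and 4.

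Among genes of the replication fork, 27 of 33 were tested, with 21 higher and 6 lower by mean and a median of 0.059. Fen1, the nuclease that trims Okazaki fragments, had the smallest p of the pathway genes. WT rats averaged 0.347 ± 0.0492 (SD, n = 4) and ADBR3 rats 0.585 ± 0.0911 (SD, n = 5), and the groups did not overlap, with WT at most 0.391 and ADBR3 at least 0.443. The difference was 0.24 ± 0.0582 (SE), 1.18-fold, with a limma adjusted p of 0.299. Rpa1, the large subunit of the single-strand binding protein, was also apart by group, at a difference of 0.12 and an adjusted p of 0.506. Rfc3, a subunit of the clamp loader named after its value was seen, differed by 0.18 with groups that overlapped. Top1, a topoisomerase, at -0.18 and Pold4, a polymerase subunit, at -0.096 were the leading genes on the lower side. Rnaseh2a, the brightest probe of this list, differed by 0.042.

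Of the origin licensing and helicase activation genes, 15 of 23 were tested, 10 higher and 5 lower, with a median of 0.080 and none at an unadjusted p under 0.05. Mcm4, the remaining subunit of the ring, differed by 0.18 ± 0.0998 (SE, adjusted p = 0.583) and Cdc45, its partner in the active helicase, by 0.17 ± 0.0866 (SE, adjusted p = 0.553). Cdc7, the kinase that triggers the ring, differed by -0.39 ± 0.177 (SE, adjusted p = 0.529) and Mcm10, a loading factor, by -0.23. In the nucleotide supply list, 13 of 16 were tested, 7 higher and 6 lower. Rrm1, the large subunit of ribonucleotide reductase, had the largest difference named, 0.54 ± 0.199 (SE, adjusted p = 0.466), but was above background on 4 of 6 WT arrays against 7 of 7 ADBR3 arrays. Ctps1, which makes CTP, differed by 0.21 (adjusted p = 0.498) and Cad, the first enzyme of pyrimidine synthesis and named after its value was seen, by 0.16 (adjusted p = 0.509). Gart, of purine synthesis, differed by -0.26 and Dut, which removes dUTP, by -0.069.

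The E2F family, pocket protein and DREAM list had 13 of 15 genes tested, 7 higher and 6 lower, with a median of 0.0038. Foxm1, a factor of mitotic genes, differed by 0.22 (adjusted p = 0.501) and was above background on 4 of 6 WT arrays. E2f6, another repressor of the family, differed by 0.075. The DP partners Tfdp2 and Tfdp1 differed by -0.13 and -0.066. Rbbp4, a histone chaperone, had the brightest probe and differed by 0.017. Among the cyclins, kinases and inhibitors of G1 and S phase, 8 of 14 were higher. Cdkn1c, a kinase inhibitor, differed by 0.26 (limma adjusted p = 0.483), while Cdkn1b differed by -0.15, Ccnd1 by -0.13 and Cdkn1a by -0.12. Ccne1, cyclin E1, differed by 0.24, but was above background on 3 of 6 WT arrays against 7 of 7 ADBR3 arrays.

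Genes of G2 and mitosis, which report dividing cells more directly, were balanced. Of 40 on the array, 23 were tested, 11 higher and 12 lower, with a median of -0.0020 and none at an unadjusted p under 0.05. Mki67, the proliferation antigen, differed by -0.17 ± 0.102 (SE, adjusted p = 0.602), Racgap1 by -0.20, the checkpoint kinase Bub1 by 0.15, Cdca3 by 0.26 and Cks1b by 0.079. Of 19 repair, checkpoint and chromatin genes only 7 were measured well enough to be tested, 5 lower and 2 higher. Ung, which removes uracil from DNA, differed by 0.21 and Rad54l by 0.15, while Blm differed by -0.23. Rad54l was above background on 4 of 6 WT and 7 of 7 ADBR3 arrays, and Blm on 3 of 6 and 3 of 7.

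**Figure D5:**
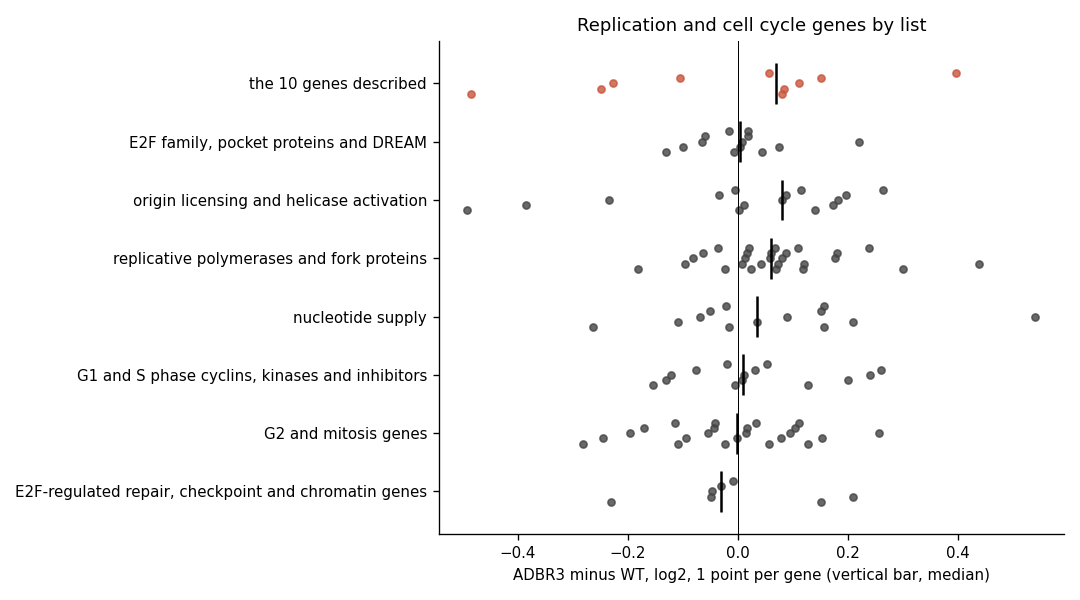
Difference (horizontal axis, ADBR3 minus WT, log2) of each tested gene, by list; the top row in red is the 10 genes described and the vertical bars are medians. The medians of the 7 lists lie between -0.031 and 0.080, and most points lie within 0.3 of 0.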

How the data were processed

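Total RNA of rat left ventricle was labelled with Cy3 and hybridized to Agilent arrays of design 028279, per the labels and the file headers. The authors deposited spot intensities from Agilent Feature Extraction 10.7.1.1; the processed signal is background-subtracted and spatially detrended, per the file headers. The series table the authors deposited is on a natural log scale. Set against the scanner values its slopes were 0.986 to 1.063 and its column medians 5.695 to 5.73, its scaling between arrays is unknown, and it served as an alternative only. Log2 levels were computed here from the deposited intensity. Spots of a probe were averaged, leaving out outlier spots where another remained, and 0.5 or more of a probe's spots on an array had to be above background. Probes in 4 of 9 rats were kept, with the brightest probe per gene name. Of the genes tested, 11562 matched a RefSeq symbol of GRCr8. Groups were the only term in the limma fit (version 3.58.1, R 4.3.3), adjusted by Benjamini-Hochberg at 0.05. It was tested on simulated data. Promoters and probes were searched with Python 3.11.15.

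The 10 genes and all lists were chosen with earlier results of these data known. Genes named from each list were up to 2 per direction, by adjusted call and then by unadjusted p, and the brightest; 1 gene that this rule gives and 1 probe sequence are not reported here. For E2f8 and the Mcm mean, the 5 closest genes by Pearson r were named. Alternatives changed scaling, background correction, filters, labelings, blocks, the variance model and the rats included. The labels do not say how the RNA of different rats was collected, so p-values measure the spread between these samples.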

Additional observations from a re-analysis of the deposited data

Results flagged for a closer look

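Among 30 sets of values, 1 per probe and group for the 10 genes and the Adrb3 probe, 2 held a rat that stood apart by the gap to its nearest neighbour over the range of the group, and chance gives about 1 in 20. E2f7 in WT rat 3 was at -5.88, with the nearest WT rat at -5.02, and its probe was not above background there. Pcna in WT rat 1 was at 0.151, with the nearest WT rat at 0.259, with a gap of 0.840 of the group's range, and with both labelings of that rat low, at 0.161 and 0.142.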

How the results depend on the processing

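The count of genes past the threshold over the whole array was 1, and 2 with normexp and the 75th percentile, with normexp and quantile normalization or with the authors' deposited values, 7 with the slide as a block, 0 with the scan day as a block, 8 with a trended and robust variance model and 0 to 12 when single rats were left out. The 3 rats of each group with shared heart numbers gave 0 both with the replicate block and without it; same-numbered rats correlated at 0.123, 0.051 and 0.151, so the numbers are not taken as pairs, although each rat correlated best with its own number. Pathway genes past the threshold were 0 in every setting run. The median difference of the 10 genes was -0.061 with the slide as a block, -0.13 within slide 1 and -0.12 within scan day 1. It was -0.035 to 0.11 with a rat left out. Adrb3 turned to -0.096 with the slide as a block. That block compares only WT rats 1, 4 and 6 with ADBR3 rats 1 and 7, since the other rats lay on slides without the other group in the fit. Adrb3 was 0.011 without ADBR3 rat 6, which is outside that contrast. What else moved these values was not tested. E2f8 kept its sign in all fitted settings. It was -0.45 to -0.32 over the other scalings and background corrections, -0.53 to -0.45 with a rat left out and -0.31 with the slide as a block. Its groups stayed separate under those scalings and corrections and with either labeling alone. Leaving out rats, or changing the block, the variance model or the probe filter, cannot make separate groups overlap, so those settings say nothing on this. Signs of Mcm2, Mcm5, Mcm7, Pcna and Tyms held throughout, but Tyms shrank from -0.25 to -0.021 with the authors' deposited values and to -0.042 with normexp and quantile normalization, and Mcm5 from -0.23 to -0.061 over rats with shared heart numbers, while E2f1 and Mcm6 each turned in 7 settings, Mcm3 in 2 and E2f7 in 1. The E2f7 difference fell to 0.059 with normexp and the 75th percentile, 0.14 with normexp and quantile normalization and 0.11 with the authors' deposited values. It was 0.44 with median scaling or with quantile normalization alone. Signal over background limits E2f7, Mcm6 and Tyms.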
